A study of Mus musculus with 16 samples.

Results

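Gm42910, Kcnj16, Adamts18 and Abcc6 had the largest falls after papain in footpad epidermal cells of mice, among genes with a mean level of 1 CPM (defined below) or more, and 6 hr after the injection their mean levels were between 4.16% and 17.5% of those with vehicle. They are 4 of the 22155 genes tested, out of 50600 gene identifiers in the count table. They were chosen by that fall, as the 3 largest on each of 2 diets, so the papain values below describe the choice and are given without a test. Libraries were made from C57/B6J females, 1 mouse each, in 4 groups of 4. From 5 wk of age the mice received for 3 wk a synthetic diet poor in ligands of the aryl hydrocarbon receptor (AhR-poor diet, labelled SYNTH) or the same diet enriched in indole-3-carbinol (I3C diet), and the footpad was then injected with PBS (50 μl) as vehicle or with papain (50 μg in the same volume), a plant cysteine protease used as a model allergen. The labels name no engineered allele, and mice of the same diet shared a cage, so diet and cage cannot be told apart. Epidermis was parted from dermis with dispase and dead cells were removed, and bulk RNA was sequenced, in which fewer cells of a type and less RNA per cell cannot be told apart.

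The members have different roles. Kcnj16 encodes Kir5.1, an inwardly rectifying potassium channel subunit that carries little current alone and forms channels with Kir4.1 (Kcnj10) or Kir4.2 (Kcnj15), best known from the basolateral membrane of kidney tubules. Adamts18 encodes a secreted metalloproteinase of the ADAMTS family, whose members cut extracellular matrix proteins. Abcc6 encodes an ATP-binding cassette transporter that promotes release of ATP from cells. The ectoenzyme ENPP1 turns that ATP into pyrophosphate, an inhibitor of mineralisation, and loss of ABCC6 causes pseudoxanthoma elasticum, in which elastic fibres of the skin calcify. Gm42910 is a predicted gene of the GENCODE class TEC, kept for transcribed loci that await experimental proof, and it has no established function.

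On GRCm38 with the GENCODE M21 annotation, Gm42910 (ENSMUSG00000105155) is a single exon of 2921 bases on the minus strand of chromosome 5, from 12142041 to 12144961, and no other annotated gene overlaps it. Its sequence has a GC content of 41.8% and its longest open reading frame holds 176 codons. It holds 3 copies of the polyadenylation signals AATAAA or ATTAAA, the last of which begins 23 bases before the annotated end, and a run of 16 A. The first 240 bases of the transcript (chr5:12144722-12144961, minus strand) are printed because this locus is known by little else than its sequence.
Gm42910: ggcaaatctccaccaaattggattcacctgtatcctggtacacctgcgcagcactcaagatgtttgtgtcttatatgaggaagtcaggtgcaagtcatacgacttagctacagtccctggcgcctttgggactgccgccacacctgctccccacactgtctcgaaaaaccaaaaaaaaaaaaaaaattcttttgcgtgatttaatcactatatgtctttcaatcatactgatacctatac

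Kcnj16 (ENSMUSG00000051497) lies on the plus strand of chromosome 11, from 110968033 to 111027968, with 5 exon blocks and 3936 exonic bases. Adamts18 (ENSMUSG00000053399) lies on the minus strand of chromosome 8, from 113697126 to 113848738, with 24 exon blocks and 10178 exonic bases. Abcc6 (ENSMUSG00000030834) lies on the minus strand of chromosome 7, from 45967555 to 46030302, with 33 exon blocks and 5721 exonic bases. A pseudogene on the other strand, Gm45674, overlaps Abcc6 and shares 0 exonic bases with it. For Kcnj16 and Adamts18 a RefSeq promoter entry (GRCm38.p6) was matched, and the 250 bases before the first Kcnj16 start (chr11:110967783-110968032, plus strand) and before the Adamts18 start (chr8:113848840-113849089, minus strand) are printed to set 2 members with like falls side by side. Capitals mark the matches of the 6 motifs searched on both strands.
Kcnj16: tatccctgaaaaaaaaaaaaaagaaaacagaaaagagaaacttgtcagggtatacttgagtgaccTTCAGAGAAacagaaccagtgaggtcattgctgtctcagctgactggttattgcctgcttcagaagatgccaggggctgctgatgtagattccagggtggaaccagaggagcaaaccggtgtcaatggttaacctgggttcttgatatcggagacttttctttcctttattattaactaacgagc
Adamts18: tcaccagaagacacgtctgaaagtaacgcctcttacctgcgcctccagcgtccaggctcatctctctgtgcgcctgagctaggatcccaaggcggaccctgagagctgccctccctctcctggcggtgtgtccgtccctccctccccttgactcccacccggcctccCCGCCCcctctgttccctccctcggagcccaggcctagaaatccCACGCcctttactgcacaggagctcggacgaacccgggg

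The windows searched ran from 250 bases before to 50 bases after each start, 1 for Adamts18 and 4 for the alternative starts of Kcnj16. The AP-1-like motif TGANTCA and the E-box CACGTG, held by 7.81% and 7.15% of 32817 windows of this length, were in 0 of these 5. The core of the AhR response element, GCGTG, was in 2 of 5, among them that of Adamts18 (as CACGC on the printed strand), against 32.4% of all windows. The GC box GGGCGG was in 2 of 5, again with Adamts18 (as CCGCCC), against 35.6%. The STAT motif TTCNNNGAA was in 1 of 5, the printed Kcnj16 window, against 8.29%, and TATAAA was in 1 of 5, that of another Kcnj16 start, against 13.6%. The printed sequences had none of these motifs in common, and the 65.2% GC content of the Adamts18 sequence stood beside 42.8% in that of Kcnj16.

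The libraries held 22500821 to 51844375 counts. Levels are CPM, a gene's counts scaled to a common library total and to library composition (TMM). The floor was taken here as 3 counts, which are 0.0579 to 0.133 CPM by library total alone, before the TMM scaling. All 4 members were scarce, with mean levels over the 16 libraries of 1.14 CPM (Gm42910), 2.25 CPM (Kcnj16), 1.25 CPM (Adamts18) and 1.85 CPM (Abcc6). Genes that met the same rules for a ranked fall had a median level of 7.22 CPM on the AhR-poor and 6.67 CPM on the I3C diet.

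Gm42910 was read in each vehicle library and held at most 20 counts in any papain library. On the AhR-poor diet its level was 1.42, 2.52, 1.88 and 2.09 CPM in the vehicle libraries T100, T101, T102 and T103. After papain it was 0.0493, 0.379, 0.303 and 0.218 CPM in T104, T105, T107 and T112, from 2, 20, 7 and 8 counts. The groups did not overlap, as for 16% of all genes tested in this direction, and the lowest vehicle library stood 3.73-fold above the highest papain library. With I3C the level was 2.41, 2.88, 3.02 and 0.660 CPM with vehicle in T108, T109, T110 and T111. After papain it was 0.0974, 0.0962, 0.0571 and 0.124 CPM in T106, T113, T114 and T115, from 4, 3, 2 and 5 counts. The groups were again apart (17.3% of all genes tested), by 5.31-fold, although T111 was far below the other vehicle libraries of its group.

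The mean of Gm42910 went from 1.98 ± 0.457 to 0.237 ± 0.142 CPM on the AhR-poor diet (SD, n = 4), which left 12% of the vehicle level. It went from 2.24 ± 1.09 to 0.0938 ± 0.0277 CPM on the I3C diet (SD, n = 4), which left 4.18%. As log2 fold changes from the edgeR fit these were -3.04 (standard error 0.46) and -4.52 (standard error 0.53), at place 1 of the ranked falls on both diets. The gaps to the next gene were far below the standard errors, and place 1 was not steady. Another member passed Gm42910 without T101, T103, T104 or T107 on the AhR-poor diet and without T106, T109 or T110 on the I3C diet. Without T104 the AhR-poor estimates were -2.68 for Gm42910, -2.75 for Kcnj16 and -2.92 for Adamts18. The other members of the first 3 changed order without T102 on the AhR-poor diet and without T108, T113 or T114 on the I3C diet.

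Kcnj16, the channel subunit, was the member read most with vehicle, also per length of exon (given below). Its level on the AhR-poor diet was 4.5, 5.32, 4.53 and 2.90 CPM with vehicle (T100, T101, T102 and T103). With papain it was 0.246, 0.607, 0.909 and 0.462 CPM (T104, T105, T107 and T112), from 10 to 32 counts. T103 was the lowest vehicle library and still 3.19-fold above T107, the highest with papain. Mice on I3C had 3.73, 4.03, 4.38 and 3.36 CPM of Kcnj16 with vehicle (T108, T109, T110 and T111). With papain it was 0.414, 0.257, 0.0571 and 0.274 CPM (T106, T113, T114 and T115), from 2 to 17 counts. These groups were 8.12-fold apart at their nearest libraries, and T114 held 2 counts, below the floor of 3.

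The mean of Kcnj16 was 4.31 ± 1.02 CPM with vehicle and 0.556 ± 0.278 CPM with papain on the AhR-poor diet (SD, n = 4), or 12.9% left, with a log2 fold change of -3.0 (standard error 0.34). On the I3C diet it was 3.88 ± 0.433 and 0.250 ± 0.147 CPM (SD, n = 4), or 6.46% left, with a log2 fold change of -3.91 (standard error 0.37). It ranked at place 2 on the AhR-poor diet and at place 5 on the I3C diet, where Tbx3os1, a transcript beside the transcription factor gene Tbx3, stood between it and Abcc6 with a log2 fold change of -4.01 (standard error 0.35).

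Adamts18, the secreted protease, had the steadiest vehicle level on the AhR-poor diet and the most scattered of the 4 on the I3C diet, relative to the mean. Its AhR-poor level was 2.59, 2.59, 2.08 and 2.58 CPM with vehicle (T100, T101, T102 and T103). With papain it was 0.296, 0.341, 0.390 and 0.245 CPM (T104, T105, T107 and T112), from 9 to 18 counts. The nearest libraries were 5.33-fold apart, the widest gap of the 4 members on this diet. Among I3C mice its level was 3.56, 1.56, 2.50 and 0.901 CPM with vehicle (T108, T109, T110 and T111). With papain it was 0.219, 0.0321, 0.0285 and 0.0746 CPM (T106, T113, T114 and T115), from 9, 1, 1 and 3 counts. The nearest libraries were 4.11-fold apart, T111 against T106, and T106 was the only papain library of this diet above the floor.

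The mean of Adamts18 went from 2.46 ± 0.255 to 0.318 ± 0.0620 CPM on the AhR-poor diet (SD, n = 4), or 12.9% left, and from 2.13 ± 1.16 to 0.0886 ± 0.0896 CPM on the I3C diet (SD, n = 4), or 4.16% left. The log2 fold changes were -2.95 (standard error 0.40) and -4.46 (standard error 0.48), at place 3 and place 2 of the ranked falls. Without T106 every I3C papain library was at the floor, so the fold could then only be bounded, at 24.9-fold lower or more.

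Abcc6, the transporter, was chosen through the I3C diet. Among AhR-poor mice its level was 3.73, 3.49, 2.13 and 3.25 CPM with vehicle (T100, T101, T102 and T103). With papain it was 0.419, 0.550, 0.779 and 0.462 CPM (T104, T105, T107 and T112), from 17 to 29 counts. The gap between the nearest libraries, T102 and T107, was 2.73-fold, the narrowest of the 4 members on this diet. On the I3C diet its level was 3.56, 3.44, 4.41 and 2.58 CPM with vehicle (T108, T109, T110 and T111). With papain it was 0.292, 0.192, 0.171 and 0.0746 CPM (T106, T113, T114 and T115), from 12, 6, 6 and 3 counts. The nearest libraries were 8.83-fold apart, the widest gap of the 4 on the I3C diet.

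The mean of Abcc6 went from 3.15 ± 0.711 to 0.553 ± 0.161 CPM on the AhR-poor diet (SD, n = 4), or 17.5% left, and from 3.50 ± 0.747 to 0.183 ± 0.0893 CPM on the I3C diet (SD, n = 4), or 5.22% left. The log2 fold changes were -2.54 (standard error 0.28), at place 8 of 389 ranked falls, and -4.23 (standard error 0.32), at place 3 of 797.

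**Figure D1:**
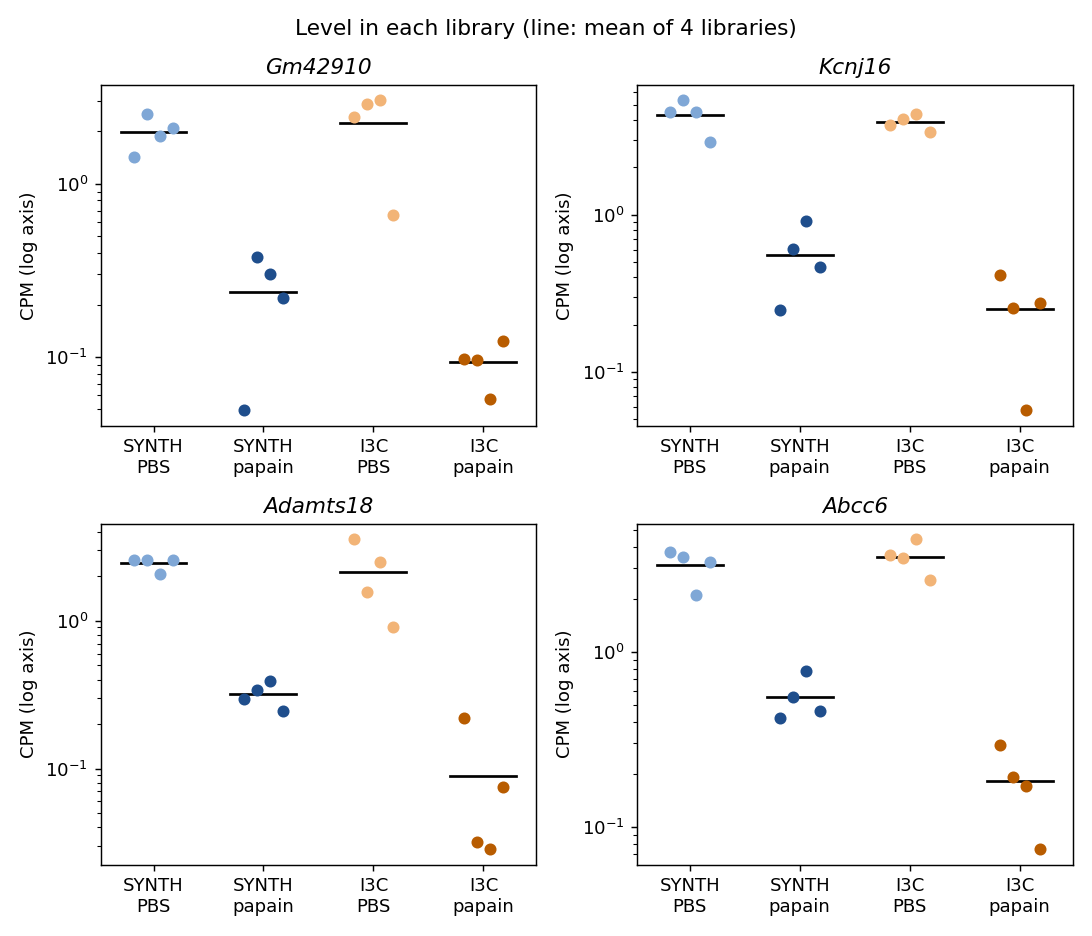
Level of each member in CPM (log axis) in the 16 libraries, by diet and injection, with 1 point per mouse and a bar at the group mean (n = 4). Papain libraries lie below every vehicle library of the same diet in all 8 comparisons. No overlap was a rule of the ranked falls that chose the members, and 16% (AhR-poor) and 17.3% (I3C) of all genes tested are likewise apart. The I3C papain libraries, some at 1 to 3 counts, reach lowest for Kcnj16, Adamts18 and Abcc6. For Gm42910 the lowest is T104 of the AhR-poor papain group, at 0.0493 CPM.

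A ranked fall was one of a gene called lower (adjusted p below 0.01 and log2 fold change below -1), with a mean of 1 CPM or more and no overlap between its groups. On the AhR-poor diet 536 of 22155 genes were called lower, 2.42%, and 1338 higher, 6.04%. On the I3C diet 1171 were called lower, 5.29%, and 818 higher, 3.69%. All 4 members were called lower on both diets. The choice fixed this for Gm42910 and Adamts18 on both, for Kcnj16 on the AhR-poor and for Abcc6 on the I3C diet. On the other diet, the calls of Kcnj16 and Abcc6 come from the same fit and the same 1 CPM filter, so they are no independent support. Just outside the first 3 falls on the AhR-poor diet were Grik4, a kainate receptor subunit, at -2.78 (standard error 0.38), Pacsin1 at -2.76 (standard error 0.46) and Tbx3os1 at -2.74 (standard error 0.32). On the I3C diet, Tbx3os1 and then Kcnj16 and Rerg, at -3.86 (standard error 0.32), followed the first 3. The steps from the last gene inside to the first gene outside were smaller than their standard errors. Genes below 1 CPM were left out of the ranks, and 8 of those called lower had a larger fall than Gm42910 on each diet.

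Levels of different genes compare only per length of exon. As CPM per kilobase, the AhR-poor vehicle means were 1.10 ± 0.258 for Kcnj16, 0.676 ± 0.156 for Gm42910, 0.551 ± 0.124 for Abcc6 and 0.242 ± 0.0250 for Adamts18 (SD, n = 4). The I3C vehicle means stood in the same order, at 0.985 ± 0.110, 0.768 ± 0.372, 0.611 ± 0.131 and 0.209 ± 0.114. Gm42910 and Abcc6 did not differ beyond their spread on either diet, and on the I3C diet neither did Kcnj16 and Gm42910.

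Diet was the comparison that the choice had not used. The AhR-poor minus I3C difference, averaged over vehicle and papain, was tested in edgeR's quasi-likelihood fit across all genes, in which 1428 genes were called higher, 6.45%, and 8 lower, 0.0361%. None of the 4 members was called. Abcc6 came nearest, with a log2 difference of 0.70 (standard error 0.22, adjusted p = 0.0317, n = 4 a group), followed by Adamts18 at 0.96 (standard error 0.33, adjusted p = 0.0486). Kcnj16 had a log2 difference of 0.61 (standard error 0.25, adjusted p = 0.106) and Gm42910 one of 0.56 (standard error 0.37, adjusted p = 0.338). All 4 estimates were above 0, toward the AhR-poor diet. For Adamts18 the call turned on library T106, without which the log2 difference was 1.44 (adjusted p = 0.00596). This comparison shares no direction with the papain contrasts when all libraries are equally precise, which papain libraries of so few counts are not.

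The averaged difference was made up unequally. With vehicle the AhR-poor minus I3C log2 differences were -0.19 (standard error 0.38) for Gm42910, 0.15 (standard error 0.29) for Kcnj16, 0.21 (standard error 0.34) for Adamts18 and -0.15 (standard error 0.25) for Abcc6, all within their standard errors, and the vehicle libraries of the diets overlapped for each gene. With papain they were 1.30 (standard error 0.64), 1.06 (standard error 0.41), 1.71 (standard error 0.56) and 1.54 (standard error 0.36) in the same order. The papain libraries of the diets did not overlap for Adamts18, at 0.245 CPM or more against 0.219 CPM or less, nor for Abcc6, at 0.419 CPM or more against 0.292 CPM or less, as for 12.5% of all genes tested in this direction. They overlapped for Gm42910 and Kcnj16. The difference between the papain responses of the diets was 1.49 (standard error 0.74) for Gm42910, 0.91 (standard error 0.50) for Kcnj16, 1.51 (standard error 0.66) for Adamts18 and 1.70 (standard error 0.43) for Abcc6 on the log2 scale. These values share libraries with the choice and are given without a test.

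**Figure D2:**
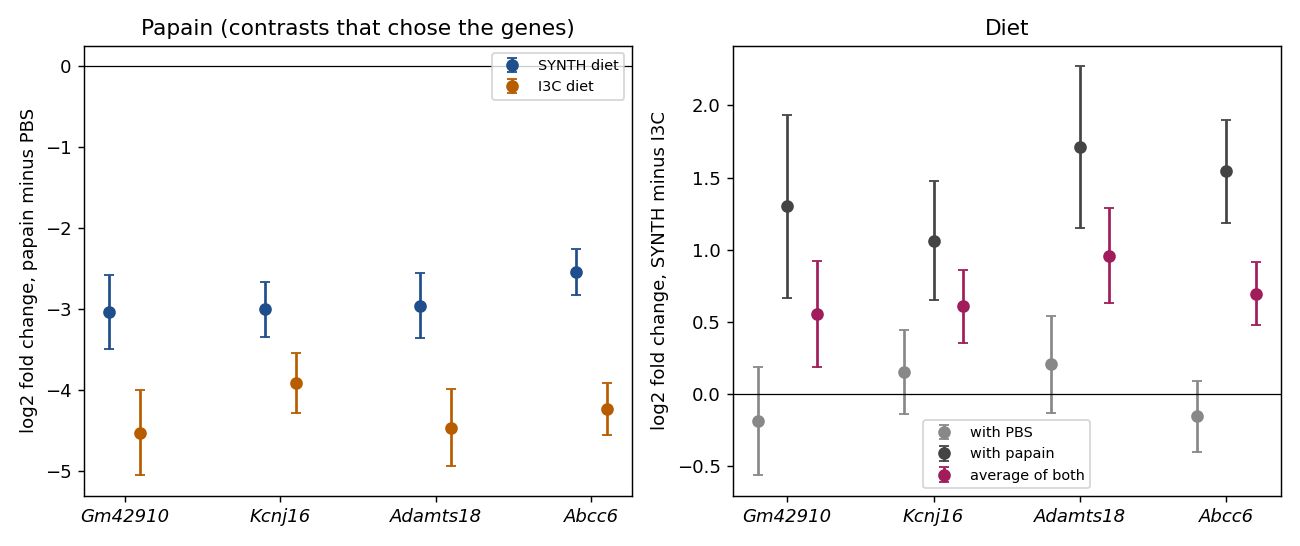
Log2 fold change (vertical axis) of the 4 members in the papain contrasts of each diet and in the diet comparison. The diet comparison is drawn with vehicle, with papain and averaged over both, all with standard errors from the edgeR fit over 16 libraries. The papain estimates lie between -4.52 and -2.54 and the averaged diet estimates between 0.56 and 0.96. The other diet estimates run from -0.19 (Gm42910, vehicle) to 1.71 (Adamts18, papain).

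Markers of other cells moved with papain and with diet, and their part in the members' values was not tested. Of 12 dermal fibroblast markers 9 were higher after papain on the AhR-poor diet and 1 lower on the I3C diet, with summed levels of 563 to 771.005 and 961 to 1365 CPM (vehicle, papain) against 480.0 to 747 and 461 to 621 CPM. Postn, at a mean of 280 CPM over all libraries, weighed most in these sums and was not called. With vehicle, Col1a1, Col1a2 and Col3a1 had means of 24.4, 25.1 and 30.8 CPM on the AhR-poor diet. On the I3C diet these were 1.43, 1.40 and 0.686 CPM. All 8 neutrophil markers were higher after papain on the AhR-poor diet, at 9.41 to 11.6 CPM with vehicle and 88.0 to 576 CPM with papain, and 4 were on the I3C diet, at 1.64 to 4.74 and 50.9 to 92.5 CPM. Those 4 were S100a8, S100a9, Cxcr2 and Mmp9. The others were not called on the I3C diet, with papain means of 0.739 (Csf3r), 0.108 (Mmp8), 0.0891 (Retnlg) and 0 CPM (Ly6g). Of 12 suprabasal keratinocyte markers 0 were called after papain on either diet (42876 to 69167 and 26641 to 50471 CPM, then 40444 to 58680 and 39117 to 54199 CPM). Of 8 basal keratinocyte markers 2, Krt15 and Dst, were lower on each diet (24576 to 30595 and 21458 to 26088 CPM, then 30401 to 38714 and 24492 to 27211 CPM), so both sums were high in every library. The suprabasal marker Krt9 was scarce, at 6.52 and 6.47 CPM (vehicle, papain) on the AhR-poor diet and 1.95 and 0.311 CPM on the I3C diet. Of 11 eccrine sweat gland markers 2 were lower on each diet, with sums of 233 to 288 and 155 to 257 CPM, then 140.1 to 200.04 and 110.4 to 151 CPM. In the diet comparison 8 of the 12 fibroblast and all 9 endothelial markers were higher on the AhR-poor diet, and so were 6 of 8 monocyte and macrophage, 7 of 8 Langerhans cell, 5 of 8 melanocyte and 5 of 6 skeletal muscle markers. After papain on that diet 7 of the 8 monocyte and macrophage markers were higher, with sums of 16.9 to 26.3 CPM (vehicle) and 93.4 to 507 CPM (papain).

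Within the groups, the members' libraries also moved together to some degree. For this the group means were taken off the log2 CPM, which removes the papain fall. The 6 pairs of members were compared over the 16 libraries with exact permutation within groups (two-sided). The choice also used the spread within groups, through the calls and the rule of no overlap. The p-values are therefore not wholly free of the choice. Adamts18 and Abcc6 had the highest correlation, r = 0.56 (exact p = 0.0430, adjusted p = 0.129), with Spearman's rho = 0.64 (exact p = 0.0155, adjusted p = 0.0329). Gm42910 and Kcnj16 had r = 0.51 (exact p = 0.00872, adjusted p = 0.0523) and rho = 0.57 (exact p = 0.0220, adjusted p = 0.0329). After adjustment Spearman's rank correlation passed 0.05 in 4 pairs and Pearson's r in 0 of the 6.

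Of the remaining pairs, Gm42910 and Adamts18 had r = 0.53 (exact p = 0.103, adjusted p = 0.139) and rho = 0.58 (exact p = 0.0218, adjusted p = 0.0329), and Kcnj16 and Adamts18 r = 0.44 (exact p = 0.0770, adjusted p = 0.139) and rho = 0.57 (exact p = 0.0216, adjusted p = 0.0329). Abcc6 had r = 0.40 with Gm42910 (exact p = 0.116, adjusted p = 0.139), with rho = 0.39 (exact p = 0.139, adjusted p = 0.139). It had r = 0.41 with Kcnj16 (exact p = 0.216, adjusted p = 0.216), with rho = 0.50 (exact p = 0.0859, adjusted p = 0.103). Without the 2 libraries farthest from the median, r was 0.58 for Adamts18 and Abcc6 and 0.41 for Gm42910 and Kcnj16, but 0.27 for Gm42910 and Adamts18 and 0.11 for Gm42910 and Abcc6, so the latter pair of relations rested on T104 and T111. For Kcnj16 r was then 0.42 with Adamts18 and 0.47 with Abcc6. T111 was the lowest I3C vehicle library for all 4 members, and T106 the highest I3C papain library for 3, Gm42910 excepted.

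The genes whose pattern was most like each member were found by Pearson's r of log2(CPM + 0.1) over the 16 libraries, among 13025 genes with at least 1 CPM on average. Vehicle and papain libraries form separate clusters for these genes, so a high r mostly repeats the papain fall, and it is given as a description. For Gm42910 the nearest was Sema3d, which encodes a secreted semaphorin of nerve and vessel guidance (r = 0.98), and Epb41l1, Ntrk2 (the receptor TrkB) and Adamts14 were also near (r = 0.97). For Kcnj16 they were Prrg3, Arhgap18, Wnt3a (a Wnt ligand), Krt12 (a keratin) and Ripor3, at r = 0.98. For Adamts18 they were Sema3d, at r = 0.99, Nuak1, Apcdd1 (a Wnt inhibitor), Arhgap18 and Arhgap42, at r = 0.98. For Abcc6 they were Adamts14, at r = 0.99, Tspyl2, Phka1, Lgals4 and Arhgap18, at r = 0.98. Some genes recurred, Arhgap18 being near 3 members and Sema3d and Adamts14 near 2 each.

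Sema3d and Adamts14 were more abundant than the members, at AhR-poor vehicle means of 11 and 16.4 CPM per kilobase of exon, and their correlation with the members was also computed within groups. These genes were picked by r over the same libraries, deviations within groups included, so the values that follow are partly set by that choice. Sema3d had 94.7 ± 15.6 CPM with vehicle and 17.2 ± 5.02 CPM with papain on the AhR-poor diet (SD, n = 4), and 91.6 ± 36.1 and 11 ± 5.02 CPM on the I3C diet. Its I3C vehicle libraries were at 117, 87.2, 120.0 and 42.2 CPM, the last being T111 again. With group means taken off, its r with Adamts18 was 0.90 (rho 0.90, and 0.87 without T108 and T111), at place 6 of 13025 genes, and its r with Gm42910 0.79 (rho 0.80, and 0.58 without T104 and T111), at place 255. Adamts14 had r = 0.84 with Abcc6 (rho 0.82, and 0.84 without T102 and T115), at place 3, and Prrg3 r = 0.77 with Kcnj16 (rho 0.71, and 0.67 without T104 and T114), at place 11. The median of such correlations over all these genes lay between -0.02 and 0.04 for the 4 members.

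**Figure D3:**
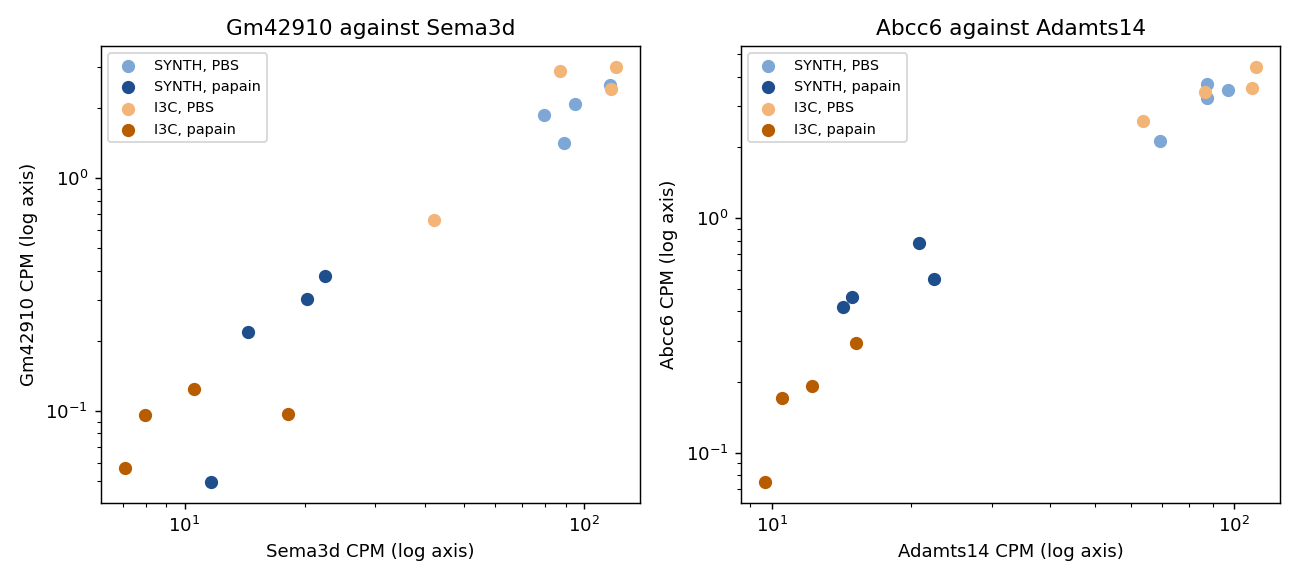
Level of Gm42910 against Sema3d and of Abcc6 against Adamts14 in the 16 libraries (both axes in CPM, log scale), coloured by group. Vehicle and papain libraries form separate clouds, and within the I3C vehicle group T111 lies lowest for Gm42910 and Sema3d.

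In the Kir family, of which 10 of 15 listed genes were tested, Kcnj16 was the only gene called lower after papain on the AhR-poor diet. On the I3C diet Kcnj2 (Kir2.1) was called lower as well, with a log2 fold change of -1.44 (standard error 0.23, adjusted p = 5.42e-05), while its AhR-poor value was -0.16 (standard error 0.22). The difference between those responses did not pass (adjusted p = 0.0838). Kcnj15, the partner subunit of Kcnj16, stayed abundant, at 24.7 ± 4.19 and 19.2 ± 2.48 CPM (vehicle, papain) on the AhR-poor and 30.6 ± 2.92 and 26.9 ± 3.04 CPM on the I3C diet (SD, n = 4). Its log2 fold changes of -0.36 and -0.19 were not called. The other partner, Kcnj10, was near the floor, at 0.0270 to 0.0550 CPM in the group means, so its change was not detectable at this depth. Kcnj11 (Kir6.2) was called higher on the I3C diet, at least 1.79-fold from a vehicle group of at most 1 count. The median log2 fold change of the 10 genes was 0.04 and -0.46 on the 2 diets, or 0.00 on both when floor-level genes were set to their bounds, against -0.004 and -0.036 over all genes tested.

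In the ADAMTS family 18 of 19 listed genes were tested, and Adamts16, the nearest relative of Adamts18, was not. Adamts14, an enzyme that trims procollagens, accompanied Adamts18 on both diets. It had 85.4 ± 11.8 and 18.1 ± 4.13 CPM (vehicle, papain) on the AhR-poor and 92.8 ± 22.6 and 11.9 ± 2.44 CPM on the I3C diet (SD, n = 4), with log2 fold changes of -2.24 (standard error 0.20, adjusted p = 1.12e-06) and -2.96 (standard error 0.21, adjusted p = 4.86e-08). Other calls were made on 1 diet each. After papain on the AhR-poor diet, 3 genes were called higher, namely Adamts2, another procollagen protease, by a log2 fold change of 1.78, and the aggrecanases Adamts4 and Adamts5 by 2.93 and 1.69. The I3C diet had 0 called higher, and Adamts7, Adamts9 and Adamts19 made up the 5 lower genes with Adamts14 and Adamts18, with log2 fold changes of -2.16 for Adamts7 and -1.41 for Adamts9 and at least 2.29-fold lower for Adamts19. None of these differences between diets passed its own test, the lowest adjusted p being 0.0650 for Adamts9. Family medians were 0.31 on the AhR-poor and -0.94 on the I3C diet, the latter -0.63 when floor-level genes were bounded.

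Of 7 ADAMTS-like genes, which encode related matrix proteins without protease activity, papain lowered 2 on the AhR-poor and 4 on the I3C diet and raised 0. Papln, which encodes papilin, had log2 fold changes of -2.01 and -2.16 (AhR-poor, I3C), and Thsd4, a partner of fibrillin microfibrils, -1.66 and -1.74. Adamtsl1 and Adamtsl4 were called on the I3C diet, at -1.84 and -1.12. The medians were -0.45 and -1.74, the latter -1.12 with the floor-level gene set to its bound.

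Among 9 tested ABCC transporters of 11 listed, Abcc6 was the only one called lower on the I3C diet. On the AhR-poor diet Abcc5, an exporter of cyclic nucleotides, was called lower too, at -1.02 (standard error 0.12, adjusted p = 2.30e-06), and its I3C value of -0.94 (standard error 0.12, adjusted p = 2.99e-06) missed the fold threshold alone. Abcc8, the sulfonylurea receptor subunit of ATP-sensitive potassium channels, went the other way on both diets, from 0.272 ± 0.124 to 2.99 ± 0.774 CPM on the AhR-poor and from 0.409 ± 0.217 to 2.96 ± 0.83 CPM on the I3C diet (SD, n = 4). Abcc1, an exporter of glutathione conjugates, was not called, at -0.45 and -0.10. The medians were -0.29 and 0.03, or -0.26 and 0.00 when floor-level genes were bounded.

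**Figure D4:**
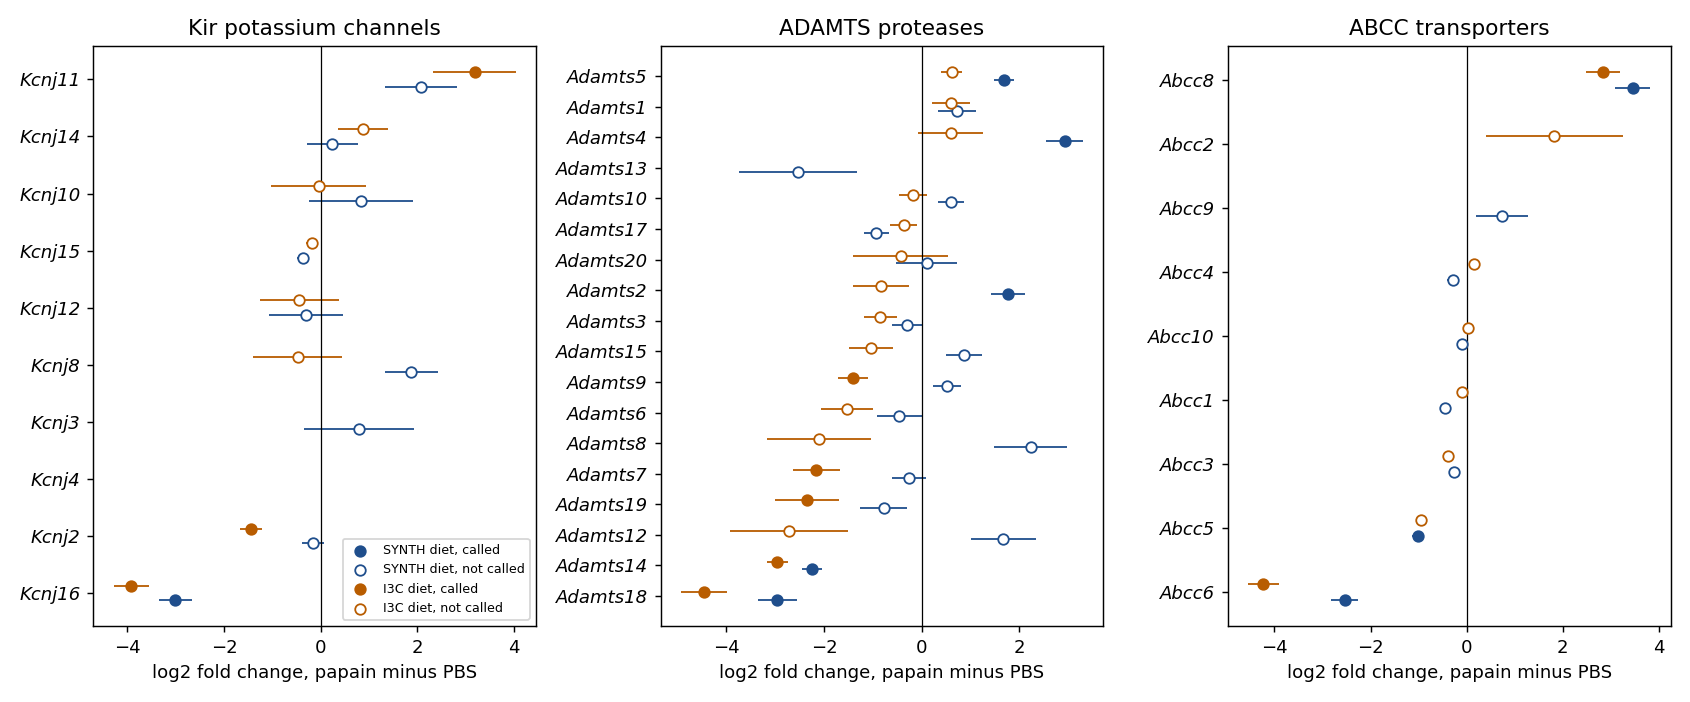
Log2 fold change after papain (horizontal axis, with standard errors) of each tested Kir, ADAMTS and ABCC gene on both diets. Filled points were called and open points were not, and no point is drawn where both groups were at 3 counts or fewer. Kcnj16, Adamts18 and Abcc6 lie at the bottom of their families, a place largely set by their choice as the largest falls.

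The genes around the pathway in which ABCC6 works moved both ways. Of 16 tested genes of pyrophosphate and mineralisation, Abcc6 included, the AhR-poor diet had 4 called higher and 2 lower, and the I3C diet 3 in each direction, with medians of 0.23 and 0.05. Enpp1, the enzyme that makes pyrophosphate from ATP, had 10.1 ± 1.57 and 6.96 ± 1.19 CPM (vehicle, papain) on the AhR-poor and 8.92 ± 1.40 and 5.01 ± 1.75 CPM on the I3C diet (SD, n = 4), with log2 fold changes of -0.54 (adjusted p = 0.0474) and -0.83 (adjusted p = 0.00351). Ank, which exports ATP and pyrophosphate, had -0.87 (adjusted p = 0.00227) and -0.71 (adjusted p = 0.00840), so it passed the p threshold on both diets and Enpp1 on the I3C diet, each short of the fold threshold. Nt5e, which makes adenosine from AMP, had -0.74 (adjusted p = 0.0266) on the AhR-poor diet and was called lower on the I3C diet, at -1.61 (adjusted p = 9.73e-05). Of the 16 genes 7 had estimates below 0 on each diet, among them Abcc6, Enpp1, Ank and Nt5e. Phospho1, a phosphatase of bone mineralisation, was lower on both diets, at -1.13 and -1.39. Mgp, an inhibitor of calcification, was higher on both, at 2.92 and 2.96, and so was Xylt1, which starts glycosaminoglycan chains, at 1.36 and 1.40. Entpd1 and Spp1, at 5.22 and 5.56, were higher on the AhR-poor diet, and Ahsg was at least 1.84-fold higher on the I3C diet, from 0 counts with vehicle. Entpd1 and Spp1 are also made by leukocytes, whose markers rose on that diet.

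Among 11 tested genes of 13 for basolateral potassium and chloride handling, in which Kir5.1 takes part in the kidney, Kcnj16 was the only one called lower on each diet. The chloride channel gene Clcn2 had log2 fold changes of -0.74 (adjusted p = 1.20e-05) and -0.997 (adjusted p = 2.73e-07), and the sodium, potassium and chloride cotransporter gene Slc12a2 -0.64 (adjusted p = 5.20e-05) and -0.65 (adjusted p = 3.32e-05), and both missed the fold threshold alone. Slc4a4, a bicarbonate cotransporter, and Kcnn4, a calcium-activated potassium channel, were higher on the AhR-poor diet, at 1.22 and 2.33. The medians were 0.16 and -0.19, the former 0.00 when floor-level genes were bounded.

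Position along the chromosome was compared through the 3 nearest tested genes on each side, 24 in all. In the AhR-poor contrast 1 was called lower and 2 higher (2.42% and 6.04% of all genes tested), and in the I3C contrast 4 lower and 2 higher (5.29% and 3.69%). Sema3d, which was so alike to Gm42910, is also its nearest tested gene at higher coordinates, 238 kb away, with papain log2 fold changes of -2.46 (standard error 0.36, adjusted p = 0.000129) and -3.06 (standard error 0.37, adjusted p = 1.93e-05). Kcnj2 and Map2k6, a kinase of the p38 pathway, flank Kcnj16 at 38.2 and 442 kb, and both were lower on the I3C diet, Map2k6 at -1.24 (standard error 0.16, adjusted p = 7.31e-06). Farther on the same side as Map2k6, Abca6 was called lower there too, but no fold is given, since both of its groups were at 3 counts or fewer. The 6 neighbours of Adamts18 were not called on either diet, although Wwox had log2 fold changes of -0.74 (adjusted p = 5.16e-05) and -0.53 (adjusted p = 0.00102) and Maf one of -0.41 (adjusted p = 0.00986) on the AhR-poor diet, short of the fold threshold. Abcc6 has Nomo1 3.40 kb away, which was not called, at 0.23 and 0.45. Abcc8 and Kcnj11, partners in 1 channel, lie 74.2 and 63.6 kb from Abcc6, and Abcc8 was called higher on both diets and Kcnj11 on the I3C diet. Emp3, 46.1 kb on its other side, was higher on the AhR-poor diet, at 1.42.

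**Figure D5:**
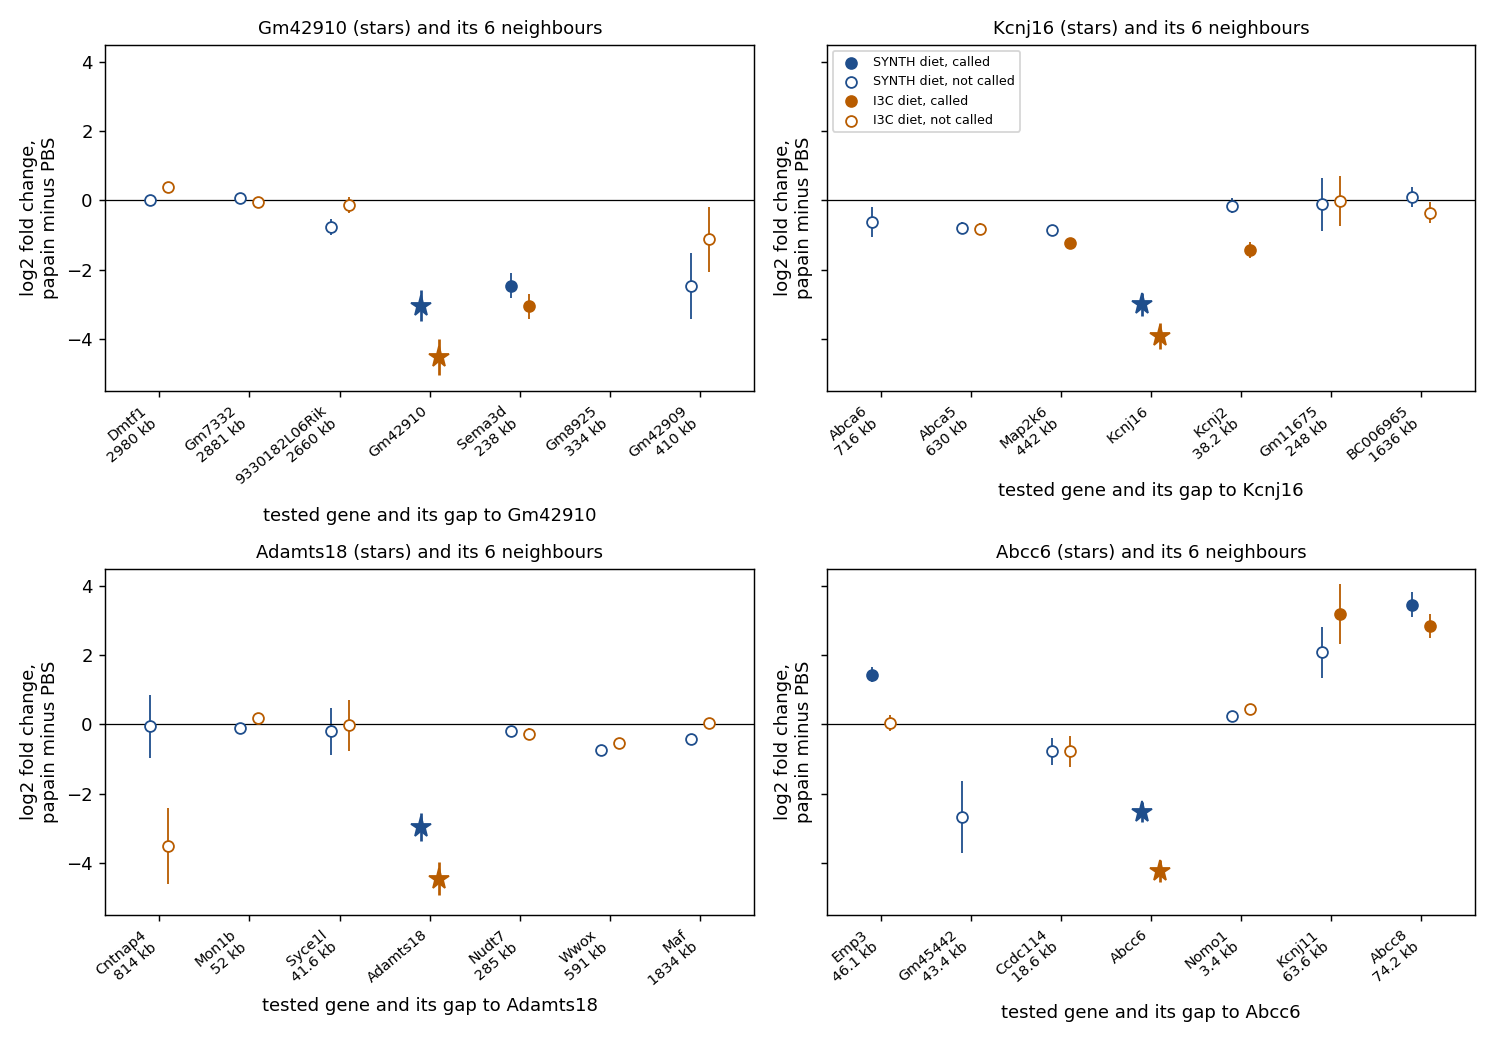
Log2 fold change after papain (vertical axis, with standard errors) of each member (stars) and its 3 nearest tested neighbours on each side, in chromosome order and labelled with the gap in kb. Filled points were called, open points were not, and no point is drawn where both groups were at 3 counts or fewer. Sema3d beside Gm42910 is the only neighbour called lower on both diets.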

How the data were processed

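Bulk RNA of footpad epidermal cells was sequenced from 16 mice. According to the methods and the labels, the authors made TruSeq Stranded mRNA libraries, sequenced them in 3 units that the labels do not assign to libraries, and aligned reads with STAR to mm10. They deposited raw counts per gene and library, without normalization. The counting tool, annotation and strand setting are not given in the sources used here. Of 50600 identifiers 50376 matched a GENCODE M21 symbol. The 22155 genes whose counts summed to 10 or more were fitted in edgeR 4.0.16 under R 4.3.3, with TMM factors, a mean for each group and the robust quasi-likelihood F test, and calls needed p below 0.01 after Benjamini-Hochberg adjustment and a log2 change beyond 1. Standard errors are the absolute log2 change divided by the square root of the F value. Groups came from the labels alone. The members, the lists of related genes and markers and the tests were chosen with earlier results of these data known. The fit was checked on simulated counts.

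Genes named beside the members are the 3 ranked next on each diet, the 3 nearest tested genes on each side, the 5 most alike by correlation (1 is not reported here), and, in lists of related genes, those called after papain (the 5 largest where over 5 were) with Kcnj10, Kcnj15, Adamts16 and Enpp1. Abcc1, Ank, Clcn2, Slc12a2, Krt9, Krt15, Dst, the fibroblast and neutrophil markers given by name and the called genes beyond the first 5 of a list were named after their values were seen. The p-values measure the spread between mice. Alternatives were RLE factors, library size only, other filters, DESeq2 1.42.0, only the libraries of 1 diet, other thresholds and leaving out each library.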

Additional observations from a re-analysis of the deposited data

Results flagged for a closer look

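In the AhR-poor vehicle group, Adamts18 stood at 2.08 CPM in library T102, while the other 3 libraries lay between 2.58 and 2.59 CPM. The gap made up 0.962 of the group's range, beyond Dixon's 95% critical value for 4 samples. It was the only 1 of the 16 groups of values so tested (4 members in 4 groups) in which a library stood apart, and chance alone sets a library apart in about 1 of 20. T102 had 84 counts of Adamts18 against 95 to 98 in the others. The papain response of Adamts18 on that diet lay between -3.03 and -2.85 on the log2 scale when any single library was left out.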

How the results depend on the processing

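Of 404 values recomputed under alternatives 386 stayed within set limits, and no member changed direction. The 404 include papain estimates refitted without a library of the other diet, which could hardly move them. The share within limits therefore overstates what was tested. The limit was the same call for diet differences and the pooled SD between libraries for papain estimates. For counts of genes it was a set fold, wide enough that 1171 and 836 lower genes (papain, I3C diet) counted as the same. Leaving out single libraries gave log2 fold changes of -5.41 (without T106, where the papain group was at the floor) to -4.10 for Adamts18 after papain on the I3C diet. Its diet difference then ranged from 0.82 to 1.44 (adjusted p from 0.00596 to 0.104 over all alternatives, called without T106 alone). The members' papain calls on few counts are limited by depth, and with at least 10 counts required in every library all 4 members dropped out, so that filter gives them no value.

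Counts over all genes moved more. That filter gave 346 lower and 651 higher genes after papain on the AhR-poor diet, and 1 lower and 443 higher genes in the diet comparison. With no minimum fold change, papain gave 2228 lower and 2749 higher genes on the AhR-poor diet and 2864 lower and 2821 higher on the I3C diet, and the diet comparison 434 lower. The 8 genes lower in the diet comparison became 5 with library size only, 14 with DESeq2, 48 at an adjusted p below 0.05, and 5 (without T100 or T108) to 18 (without T106) when a library was left out, with 14 without T111. The cause of these changes beyond the construction of each alternative was not tested. No paired analysis was possible because the replicate codes of the labels are not shared between groups.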
